A study of Homo sapiens with 8 samples.

Results

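The replication-dependent histone genes encode the core histones H2A, H2B, H3 and H4 and the linker histone H1, and their open chromatin was followed in 2 multiple myeloma cell lines. Members are all peaks whose nearest transcript in the deposited annotation carries a HIST1H, HIST2H, HIST3H or HIST4H name, which gave 63 of 62528 peaks under 46 gene names. Of these, 50 lie in the large cluster on chromosome 6, 12 lie on chromosome 1 and 1, HIST4H4, lies on chromosome 12, and the clusters are kept apart below. By class, 7 peaks are named for H1, 11 for H2A, 21 for H2B, 11 for H3 and 13 for H4 genes, and 10 of them are named for a gene that RefSeq lists as a pseudogene. A peak within 1000 bp of the annotated start is called a promoter peak here (42 peaks), 11 others lie in the annotated transcript and 10 are intergenic.

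ATAC-seq, in which a transposase cuts and tags accessible DNA, was run on JJN3 and KMS11, established lines from human multiple myeloma. Each line was treated for 48 h with the solvent DMSO, with 200 nM pomalidomide, with 40 nM GNE-781 or with both drugs, and 1 library was made for each line and treatment, 8 in all. Serum was at 5% for all of them. Pomalidomide directs the cereblon ubiquitin ligase to the transcription factors IKZF1 and IKZF3, and GNE-781 blocks the bromodomains of EP300 and CREBBP, acetyltransferases that modify histones. Cells with added BATF or eGFP, named in the design text, were not analysed here.

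Replication-dependent histone genes are switched on in S phase, when new DNA has to be packed. Cyclin E with CDK2 phosphorylates NPAT at the histone locus body, a nuclear structure on the gene clusters, and factors such as HINFP at H4 promoters, POU2F1 at the octamer of H2B promoters and NF-Y at CCAAT boxes bring the transcription machinery. The mRNAs end in a stem-loop instead of a poly(A) tail. Most genes stand in head-to-head pairs of H2A and H2B or as short single genes, so 1 peak often spans more than 1 promoter.

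The promoters below are shown because the results turn on them. HIST1H4K had the largest difference between the lines among the members, HIST1H4J is its near copy, HIST2H4A had the lowest p under pomalidomide among chromosome 1 members, and HIST1H2AC has the member peak called under both pomalidomide and the combination. Each sequence is the 250 bases before the RefSeq start (GRCh38.p14), 5′ to 3′ on the gene's strand. Capitals mark 4 motifs on either strand, namely GGTCCG as the core of the H4 site II, CCAAT as the box bound by NF-Y, TATAAA as the TATA box and ATTTGCAT as the octamer. HIST1H4K (H4C12 in RefSeq) is at chr6:27831561-27831810 on the minus strand, HIST1H4J (H4C11) at chr6:27823842-27824091 on the plus strand, HIST2H4A (H4C14) at chr1:149832407-149832656 on the plus strand and HIST1H2AC (H2AC6) at chr6:26123922-26124171 on the plus strand.
HIST1H4K: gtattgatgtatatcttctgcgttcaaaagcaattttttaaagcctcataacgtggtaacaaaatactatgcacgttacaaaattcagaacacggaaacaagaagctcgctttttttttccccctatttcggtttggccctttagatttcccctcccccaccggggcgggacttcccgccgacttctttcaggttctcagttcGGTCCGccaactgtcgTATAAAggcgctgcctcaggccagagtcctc
HIST1H4J: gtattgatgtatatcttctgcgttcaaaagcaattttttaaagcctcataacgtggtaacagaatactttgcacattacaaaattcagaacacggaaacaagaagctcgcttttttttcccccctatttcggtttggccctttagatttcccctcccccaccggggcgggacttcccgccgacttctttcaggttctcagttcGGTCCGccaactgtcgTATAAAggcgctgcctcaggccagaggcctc
HIST2H4A: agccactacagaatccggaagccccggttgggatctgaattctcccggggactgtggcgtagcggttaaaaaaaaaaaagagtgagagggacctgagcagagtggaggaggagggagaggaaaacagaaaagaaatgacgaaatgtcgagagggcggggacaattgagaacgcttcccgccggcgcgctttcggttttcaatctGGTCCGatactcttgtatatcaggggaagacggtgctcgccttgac
HIST1H2AC: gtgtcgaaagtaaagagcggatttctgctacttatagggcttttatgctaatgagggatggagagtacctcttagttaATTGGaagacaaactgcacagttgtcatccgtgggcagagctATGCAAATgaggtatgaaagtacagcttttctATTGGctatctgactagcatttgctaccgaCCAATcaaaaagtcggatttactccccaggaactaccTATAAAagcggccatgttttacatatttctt

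Over the 300-base windows that also hold the 50 bases after the start, HIST1H4J and HIST1H4K are identical at 295 of 300 bases (98.3%). Counted from the 5′ end of the printed stretch, with the HIST1H4J base first, they differ by G62A, T69A, A75G, C119T and G246T, and both hold the site II core and the TATA box. HIST2H4A and HIST2H4B, at opposite ends of a duplicated stretch of chromosome 1, are identical over all 300 bases. Short reads inside such copies cannot be assigned to 1 of them, and how reads with several matches were counted is not given in the sources used here. Values for HIST2H4A and HIST2H4B are therefore uncertain as separate genes, and those for HIST1H4J and HIST1H4K are so wherever a read covers none of the bases that differ. HIST2H3C, HIST2H2AA3, HIST2H2AA4 and HIST2H3A start between HIST2H4A and HIST2H4B. The peaks over them may share reads in the same way, which was not tested.

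The sequence elements divided the classes. CCAAT was in all 6 H1, 16 H2A, 18 H2B and 13 H3 windows but in 3 of 13 H4 windows, against 34.6% of all 34796 distinct RefSeq promoter windows. The site II core was in 12 of 13 H4 windows (92.3%) and in 11.2% of all windows. The octamer was in 11 of 16 H2A and 14 of 18 H2B windows, in 1 of 13 H3 windows and in none of the 6 H1 or 13 H4 windows, against 1.76% of all. TATAAA was in 44 of 66 histone windows (66.7%) against 11.6% of all. These matches describe letters only, and binding was not measured. Windows of head-to-head genes overlap, as those of HIST1H2AC and HIST1H2BC do, so the same motif can count in both classes. The HIST1H2AD and HIST1H3D windows are identical and count in both H2A and H3.

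Of 66 protein-coding histone genes with a RefSeq promoter window, 49 had that window under a peak and 17 did not. H2A windows were under a peak in 14 of 16 cases, H2B in 14 of 18, H4 in 10 of 13, H1 in 4 of 6 and H3 in 7 of 13. The genes without a peak were HIST1H1T, HIST1H1A, HIST1H2AA, HIST1H2BA, HIST1H3A, HIST1H3C, HIST1H3E, HIST1H3G, HIST1H2BB, HIST1H2BE, HIST1H4F, HIST1H4G, HIST1H4L, HIST3H3, HIST3H2A, HIST3H2BB and HIST2H3PS2. A window under no peak lies outside the peaks of the table used here, which gives no measure of its accessibility. Of the 49 windows, 43 were under a member peak and 6 under 4 peaks that the deposited table names for other transcripts. A total of 9 peaks held 2 windows, and 1 peak held 3, those of HIST1H2AD, HIST1H2BF and HIST1H3D.

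The peak name is not always the gene beneath it. Of the 63 member peaks, 42 overlap a protein-coding histone gene of RefSeq and 21 overlap none. All 5 peaks named HIST1H2BB lie in an annotated transcript of 80678 bp, whereas the RefSeq gene is 487 bp long and at least 11282 bp away from each of them. Among these, 6:26103622-26104393 lies over HIST1H4C, an H4 gene, and 6:26054995-26055773 over the end of HIST1H1C, a linker histone gene. The same holds for both peaks in the transcript of HIST2H2BE, of which the larger, 1:149840950-149843345, covers HIST2H3C and HIST2H2AA3. Below, such peaks are given with their coordinates.

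Accessibility is given as CPM (a peak's count scaled to library size) after scaling by the trimmed mean of M-values. Peaks differ in width, with a median of 640 bp for members and 431 bp for all peaks, so levels are compared between peaks only as CPM per kb. Per kb, averaged over the 8 libraries, the highest members lay in the HIST2 stretch of chromosome 1, with 84.4 at 1:149851677-149852880 over HIST2H3A, 81.4 at the shared promoter of HIST2H2BE and HIST2H2AC, 80.3 at HIST2H4B, 80.1 at 1:149840950-149843345 and 76.8 at HIST2H4A. Others in that stretch were lower, with 42.1 at HIST2H3D and 23.8 at the HIST2H2BF peak 1:149783962-149784379. Apart from the HIST2H2BE and HIST2H2AC promoter, the highest ones lie in the duplicated part named above, so their levels may not be separate. The highest chromosome 6 peaks had 58.8 at the HIST1H2BJ and HIST1H2AG promoter, 53.1 at HIST1H1PS1 and 50.2 at HIST1H3H. Leaving out the pseudogene, the H1 promoter peaks on chromosome 6, at genes for linker histone subtypes, ranged from 17.2 to 44.0. The highest was at HIST1H1E. The lowest, 6:26233774-26234295, lies over the 3′ end of HIST1H1D, and the peak over the start of that gene had 18.2. HIST1H4J averaged 27.3 and HIST1H4K 25.7, the latter with a wide gap between the lines described below.

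Libraries held 1366628 to 3218581 counts in JJN3, with the fewest under DMSO, and 2981408 to 5435673 counts in KMS11. Members held 0.158% to 0.21% of a library's counts, and the median member count ran from 26 (JJN3, DMSO) to 86 (KMS11, combination). The correlation of log2 CPM between any 2 libraries was at most 0.936. The plasma cell label was checked on promoter peaks of marker genes: 8 of 9 plasma cell genes had one, with sums of 302 to 345 CPM in JJN3 and 232 to 266 CPM in KMS11. Of other cell types, 0 of 6 myeloid, 2 of 7 T and NK cell, 1 of 4 erythroid and 2 of 5 stromal marker genes had one. TNFRSF17 had no promoter peak.

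The lines differed at the histone genes more than the treatments did. HIST1H4K, which encodes H4, was 8.85-fold more accessible in JJN3 (95% interval 6.4 to 12.2). The H4 promoters HIST1H4D, HIST1H4E, HIST1H4A and HIST1H4J and the H2B promoter HIST1H2BH were higher in JJN3 too, between 1.81-fold and 3.03-fold. In the summed signal, the 50 chromosome 6 peaks gave 1110 ± 115 CPM in JJN3 and 827 ± 42.1 CPM in KMS11 (SD, n = 4 libraries, 1 per treatment), a ratio of 1.34. The 12 chromosome 1 peaks gave 839 ± 84 and 672 ± 28.2 CPM, a ratio of 1.25. The bars of summed signal show that all 4 JJN3 libraries lay above all 4 KMS11 libraries in both clusters.

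**Figure D1:**
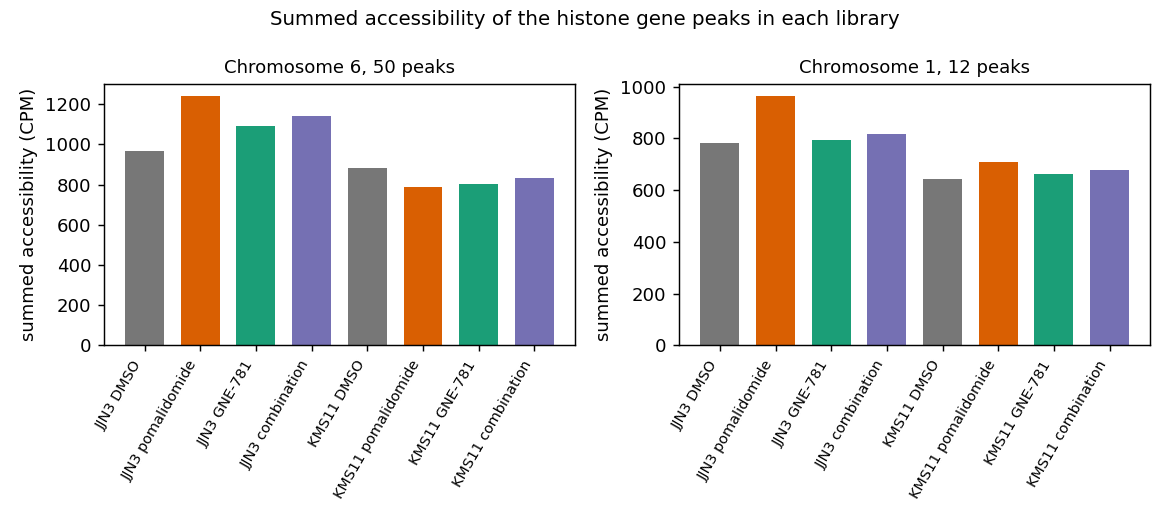
Summed accessibility (CPM, vertical axis) of the 50 chromosome 6 and the 12 chromosome 1 histone gene peaks in each of the 8 libraries, 1 bar per library, coloured by treatment. JJN3 bars run from 967 to 1240 CPM on chromosome 6 and from 782 to 963 on chromosome 1, KMS11 bars from 789 to 883 and from 641 to 708.

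At HIST1H4K, 6:27830983-27831712, JJN3 had 35.3 CPM with DMSO, 37.3 with pomalidomide, 28.2 with GNE-781 and 33.5 with both drugs. KMS11 had 2.85, 2.79, 5.82 and 4.1 CPM in the same order, from 11 to 23 counts a library. Every JJN3 library was far above every KMS11 library, whatever the treatment, and the log2 ratio of JJN3 to KMS11 in this order was 3.37, 3.47, 2.16 and 2.85. Over all 8 libraries the log2 difference was 3.14 ± 0.23 (SE; adjusted p = 2.09e-18, edgeR quasi-likelihood test with Benjamini-Hochberg adjustment over all peaks, as for every adjusted p below unless another tool is named). The labels do not say that libraries come from separate cultures, so each p measures the spread between these libraries, which may be technical.

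Its near copy HIST1H4J, 6:27823822-27824516, behaved less extremely. JJN3 had 21.0, 27.3, 22.4 and 26.7 CPM under DMSO, pomalidomide, GNE-781 and the combination, and KMS11 had 12.9, 12.6, 13.3 and 15.3. The lines do not overlap here either, and the log2 difference was 0.86 ± 0.19 (adjusted p = 0.000139), below the 2-fold needed for a line call. On the other side of HIST1H4K, the next peaks, at HIST1H2BN and at the HIST1H2AK and HIST1H2BN promoters, had log2 differences of -0.16 and 0.22, neither past the threshold. The HIST1H4K difference was thus larger than that of the peaks on both sides of it.

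Of the 62 members tested, 9 were called between the lines at an adjusted p under 0.05 and at least 2-fold, 8 higher in JJN3 and 1 lower. Of all 62234 peaks tested 31.9% were called, 16.1% higher and 15.8% lower, so the members' share was below the background, most of all in the lower direction. The mix of positions differs, since 42 of the 62 members but only 15906 of all 62234 peaks are promoter peaks. The part of this mix was not tested. At any fold, 30 of 62 members passed an adjusted p of 0.05, against 54.2% of all peaks. In 20 of the 62, all 4 JJN3 libraries lay above all 4 KMS11 libraries, against 21% of all peaks, and in 2 they lay below, against 21.3%.

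Peaks named for H4 genes made up 8 of those 20. Classes follow the peak name, so the peak over HIST1H4C, 6:26103622-26104393, counts as H2B. It also had no overlap between the lines, with at least 31.6 CPM in JJN3 and at most 22.3 CPM in KMS11. The peaks named HIST2H2BE over HIST2H3C, HIST2H2AA3 and HIST2H3A count as H2B as well. A promoter shared by H2A and H2B genes counts only under the name its peak carries. Of the 13 H4 peaks, 8 had no overlap between the lines with JJN3 higher, namely HIST1H4A, HIST1H4B, HIST1H4D, HIST1H4E, HIST1H4J, HIST1H4K, HIST2H4A and HIST2H4B, and the class median was a log2 difference of 0.53. The medians were 0.36 for H2B, 0.35 for H1, 0.24 for H3 and 0.19 for H2A, and 2 of 11 H2A peaks had JJN3 above KMS11 without overlap. Summed over chromosome 6 promoters, H4 gave 192, 253, 219 and 234 CPM in JJN3 under DMSO, pomalidomide, GNE-781 and the combination, and 134, 122, 127 and 132 CPM in KMS11. H2B promoters gave 220, 250, 245 and 224 CPM against 212, 191, 182 and 183 CPM, also without overlap but closer. H1 promoters overlapped, with 78.9 to 112 CPM in JJN3 and 65.6 to 90.3 CPM in KMS11. Whether the classes differ from each other was not tested. The 8 H4 peaks without overlap are not independent, since the HIST2H4A and HIST2H4B windows are identical and those of HIST1H4J and HIST1H4K nearly so.

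Among the other called promoters, HIST1H4D had 14.3, 31.7, 23.7 and 32.0 CPM in JJN3 and 10.6, 10.5, 12.9 and 11.4 CPM in KMS11, a log2 difference of 1.19 ± 0.20 (adjusted p = 1.46e-06). The JJN3 DMSO library was the nearest to KMS11. HIST1H2BH, an H2B gene, had 11.3, 9.66, 11.5 and 13.6 CPM against 4.92, 3.43, 2.91 and 3.92 CPM, a difference of 1.60 ± 0.29 (adjusted p = 3.88e-06). The shared promoter of HIST1H2AJ and HIST1H2BM had 21.8, 32.7, 28.9 and 27.2 CPM against 16.6, 12.4, 12.6 and 11.4 CPM, a difference of 1.09 ± 0.19 (adjusted p = 2.56e-06). In all of these every JJN3 library lay above every KMS11 library. The HIST1H2AJ value fell below 2-fold with upper-quartile scaling (0.98), without the JJN3 pomalidomide library (0.97) and without the KMS11 pomalidomide library (0.96).

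Of the calls outside promoters, the peak over HIST1H4C, 6:26103622-26104393, had 31.6, 44.0, 39.8 and 47.0 CPM in JJN3 and 18.6, 17.4, 22.3 and 20.5 CPM in KMS11. Its log2 difference was 1.06 ± 0.16 (adjusted p = 8.11e-08), so a further H4 gene was higher in JJN3 under the name HIST1H2BB. It fell to 0.95 with upper-quartile scaling and to 0.96 or 0.95 without the JJN3 or the KMS11 pomalidomide library, just below 2-fold. Peaks at 6:26087469-26087913 and 6:26065973-26066254 in the same transcript differed by 1.21 and 1.00. At both the libraries overlap. At the former, JJN3 had 4.49 CPM and KMS11 had 4.85 CPM under GNE-781. At the latter, JJN3 had 5.33 CPM under pomalidomide and KMS11 had 6.23 CPM under the combination. The latter fell below 2-fold with upper-quartile scaling (0.89) and without the JJN3 or the KMS11 GNE-781 library (0.80 each). The same held without the JJN3 or the KMS11 combination library (0.92 each). An intergenic peak at 6:26327604-26327814, named for the pseudogene HIST1H3PS1, differed by 1.21, a call lost without the JJN3 (adjusted p = 0.0889) or the KMS11 (0.0768) combination library. Its libraries overlap too, with 3.21 CPM in JJN3 under GNE-781 and 4.92 CPM in KMS11 under DMSO. The line threshold ran between 6:26065973-26066254, just inside at 2.0-fold, and the HIST1H2AL promoter, just outside at 1.99-fold, where JJN3 had 31.5 to 33.8 CPM and KMS11 14.1 to 18.4 CPM. Only a peak named for HIST3H2BA, an H2B pseudogene in RefSeq, was called lower in JJN3, at an intergenic position 7282 bp from its start, with 3.12 ± 2.17 CPM against 6.74 ± 1.65 CPM (SD, n = 4), where the libraries overlap, and its adjusted p was 0.0839 without the JJN3 and 0.0908 without the KMS11 pomalidomide library. HIST4H4 on chromosome 12 was also lower in JJN3, with 29.3 to 49.5 CPM against 54.1 to 68.8 CPM and a log2 difference of -0.55 ± 0.15 (adjusted p = 0.0015), below 2-fold.

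**Figure D2:**
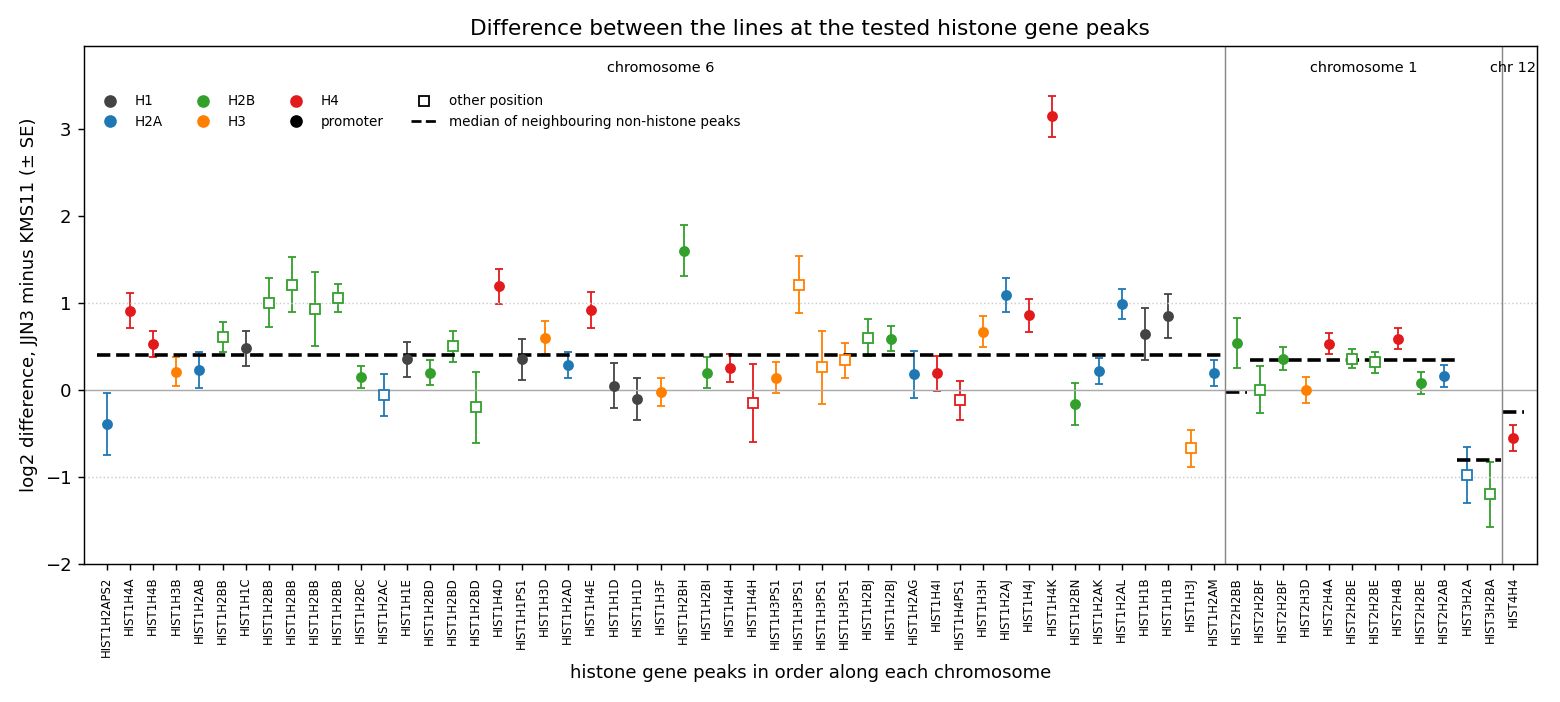
Log2 difference between JJN3 and KMS11 (vertical axis, ± SE) at the 62 tested histone gene peaks in order along chromosomes 6, 1 and 12, coloured by histone class, with filled circles for promoters, open squares for other positions and dashed lines at the median of the non-histone peaks within 1 Mb. HIST1H4K at 3.14 stands far above the rest, most chromosome 6 peaks scatter around the local median of 0.40, and the HIST3 peaks and HIST4H4 lie below 0.

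In the stretches that hold more than 1 member, the neighbouring chromatin differed between the lines in the same direction as the members. The median log2 difference was 0.35 over 49 chromosome 6 members and 0.24 over 12 chromosome 1 members, against -0.08 over all peaks. The 134 non-histone peaks within 1 Mb of the chromosome 6 members had a median of 0.40, which left the members at -0.05 relative to them. On chromosome 1 the 9 members of the HIST2 stretch had a median of 0.32 and their 114 neighbours 0.34, and the HIST3 peaks had -1.09 beside -0.80 for 109 neighbours. Relative to their neighbours the HIST3 peaks lay at -0.3, and so did HIST4H4, which stands alone. The other peak that stands alone, HIST2H2BB, lay at 0.56, and its line difference had an adjusted p of 0.115. The HIST2H2BB peak, 1:143904070-143904270, had 0.54 beside -0.02 for 67 neighbours, and HIST4H4 had -0.55 beside -0.25 for 35 neighbours. Accessibility and DNA copy number cannot be told apart in these counts, so the local median is given beside each cluster. HIST1H4K at 3.14 and HIST1H4D at 1.19 lie well above the local 0.40.

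Among the 4 peaks over histone promoters that the table names for other transcripts, the one over HIST1H2AE and HIST1H2BG, 6:26216343-26217406, also differed between the lines. It had 52.6 to 65.3 CPM in JJN3 and 18.4 to 21.7 CPM in KMS11, a log2 difference of 1.59 ± 0.15 (adjusted p = 1.42e-14). The peaks over HIST1H2BK, over HIST1H2AI and HIST1H2BL, and over HIST2H2AA4 differed by 0.33, 0.24 and 0.33. The rule by name thus leaves out an H2A and H2B pair with a larger line difference than all but 2 of the members. None of the 4 passed the threshold under a treatment.

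**Figure D3:**
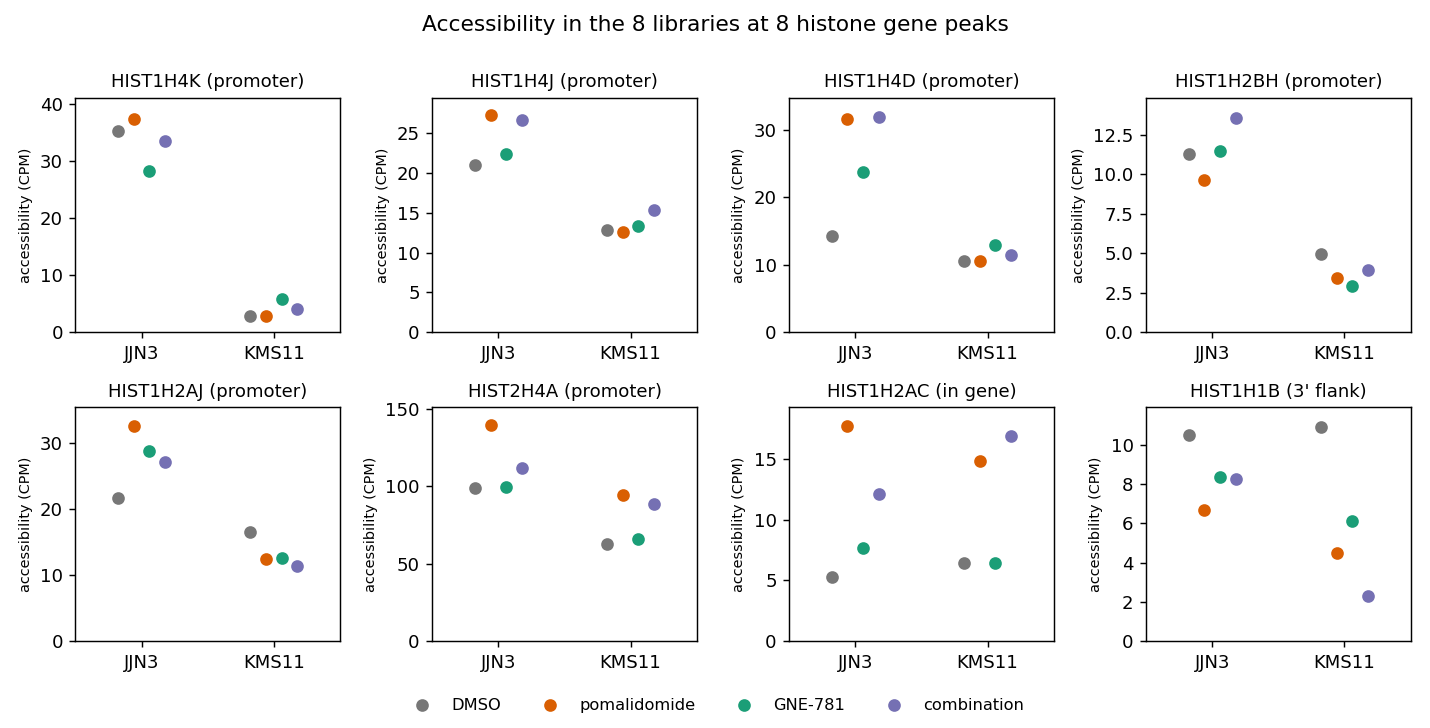
Accessibility (CPM, vertical axis from 0) at 8 histone gene peaks in the 8 libraries, 1 point per library, split by line and coloured by treatment. HIST1H4K, HIST1H4J, HIST1H4D, HIST1H2BH and HIST1H2AJ separate the lines, and at the HIST1H2AC peak in the gene the pomalidomide and combination libraries of both lines, at 12.1 to 17.7 CPM, lie above the DMSO and GNE-781 libraries at 5.26 to 7.69 CPM.

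Under pomalidomide 1 member rose, a peak in the longer transcript of HIST1H2AC, an H2A gene, at 6:26125908-26126393. It had 5.26 CPM under DMSO and 17.7 under pomalidomide in JJN3, and 6.47 and 14.8 CPM in KMS11, and so was higher with the drug in both lines. The log2 change was 1.40 ± 0.35 (adjusted p = 0.0215), or 2.65-fold. Of all peaks 1.25% were called under pomalidomide, 1.03% higher, so 1 of 62 is about the background share. At an unadjusted p under 0.05 there were 6 of 62 members, against 11.2% of all peaks.

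This peak is not the promoter. It lies 1218 bp past the end of the RefSeq gene, and the promoter that HIST1H2AC shares with HIST1H2BC had 63.1 and 74.3 CPM in JJN3 and 61.6 and 62.0 CPM in KMS11 under DMSO and pomalidomide, a log2 change of 0.11 ± 0.18 (adjusted p = 0.914). The call rests on few counts, 7 in the JJN3 DMSO library, and was lost without any 1 of the 4 libraries compared: the adjusted p was 0.119 without JJN3 DMSO, 0.186 without JJN3 pomalidomide, 0.339 without KMS11 DMSO and 0.165 without KMS11 pomalidomide, and over all alternatives it ran from 0.000205 to 1. DESeq2 gave a log2 change of 1.41 and an adjusted p of 0.367.

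Of the chromosome 1 members, the identical H4 promoters had the lowest p. HIST2H4A had 99.2 CPM under DMSO and 140 CPM with pomalidomide in JJN3, and 62.9 and 94.5 CPM in KMS11, for a log2 change of 0.55 ± 0.17 (adjusted p = 0.0969). HIST2H4B gave 0.45 ± 0.17 (adjusted p = 0.227), and as the copies share their sequence these are not independent observations. HIST2H3D, an H3 gene between HIST2H2BF and HIST2H4A, gave 0.43 ± 0.22 (adjusted p = 0.445). Over chromosome 1 the median log2 change was 0.16 and over chromosome 6 it was 0.06, against 0.02 over all peaks.

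GNE-781 alone changed 0 of 62 members by edgeR, as by DESeq2, against 0.0209% of all peaks. At an unadjusted p under 0.05 there were 3 members, against 6.58% of all peaks: HIST2H3D at 0.46, HIST3H2BA at 1.03 and a HIST1H2AG peak at -1.06. The medians were 0 on chromosome 6 and 0.11 on chromosome 1, against 0 over all peaks. The chromosome 6 promoters with the highest mean CPM of each class gave -0.29 ± 0.29 at HIST1H1C, 0.32 ± 0.22 at HIST1H2AK, -0.05 ± 0.19 at HIST1H2BC, 0.34 ± 0.23 at HIST1H3F and 0.14 ± 0.22 at HIST1H4B. The median unadjusted 95% interval of a histone promoter reached 0.57 to either side, and 0.38 for those on chromosome 1. These widths describe precision only, and the change needed for a call adjusted over all peaks is larger: HIST1H2AG at -1.06 had an adjusted p of 0.605.

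Under the combination 2 of 62 members were called, against 4.79% of all peaks, 2.11% higher and 2.67% lower, and 7 had an unadjusted p under 0.05, against 17.4%. The HIST1H2AC peak was again higher, with 12.1 CPM in JJN3 and 16.9 CPM in KMS11 beside the DMSO values above, a log2 change of 1.30 ± 0.35 (adjusted p = 0.0172). Pomalidomide and the combination share their DMSO libraries, so these calls are not independent. The GNE-781 libraries, with 7.69 and 6.47 CPM, stayed near DMSO, at a log2 change of 0.19. Under the combination the median log2 change was 0.09 on chromosome 6 and 0.36 on chromosome 1, against 0 over all peaks. On chromosome 1, 9 of 12 members lay above 0, against 31122 of all 62234 peaks. Whether the cluster as a whole shifted was not tested.

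The other call was a fall at a peak named for HIST1H1B, a linker histone gene, at 6:27866244-27866537, which lies 255 bp past the 3′ end of the RefSeq gene and counts as a promoter peak because the gene is short. In JJN3 it had 10.5 CPM with DMSO, 6.66 with pomalidomide, 8.34 with GNE-781 and 8.24 with both drugs, and in KMS11 it had 10.9, 4.5, 6.14 and 2.31 CPM. Both lines were highest under DMSO, and the fall was larger in KMS11, with log2 ratios under the combination of -0.33 in JJN3 and -1.96 in KMS11. The log2 change was -1.37 ± 0.42 (adjusted p = 0.0396). The HIST1H1B promoter itself, 6:27867247-27867587, had a change of 0.00 (adjusted p = 0.997).

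Both calls were lost in some alternatives. For HIST1H2AC the log2 change was 1.19 without JJN3 DMSO (adjusted p = 0.0791), 1.5 without KMS11 DMSO (0.23), 0.89 without the KMS11 combination library (0.51) and 1.27 by DESeq2 (0.223). For HIST1H1B it was -0.79 without KMS11 DMSO (adjusted p = 0.686) and -0.58 without the KMS11 combination library (0.738), and DESeq2 gave no adjusted p. Over all alternatives with a value the adjusted p ran from 0.00733 to 1 and from 0.00152 to 1.

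Whether the combination departed from the summed log2 effects of both drugs was tested too, and this departure passed the threshold at 0 of 62 members by edgeR, against 0% of all peaks. At an unadjusted p under 0.05 there was 1 member, against 2.64% of all peaks. That member was the HIST1H2AG peak at 6:27133793-27134005, with a departure of 1.24 ± 0.54. The median departure was 0.02 on chromosome 6 and -0.22 on chromosome 1, against -0.03 over all peaks.

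**Figure D4:**
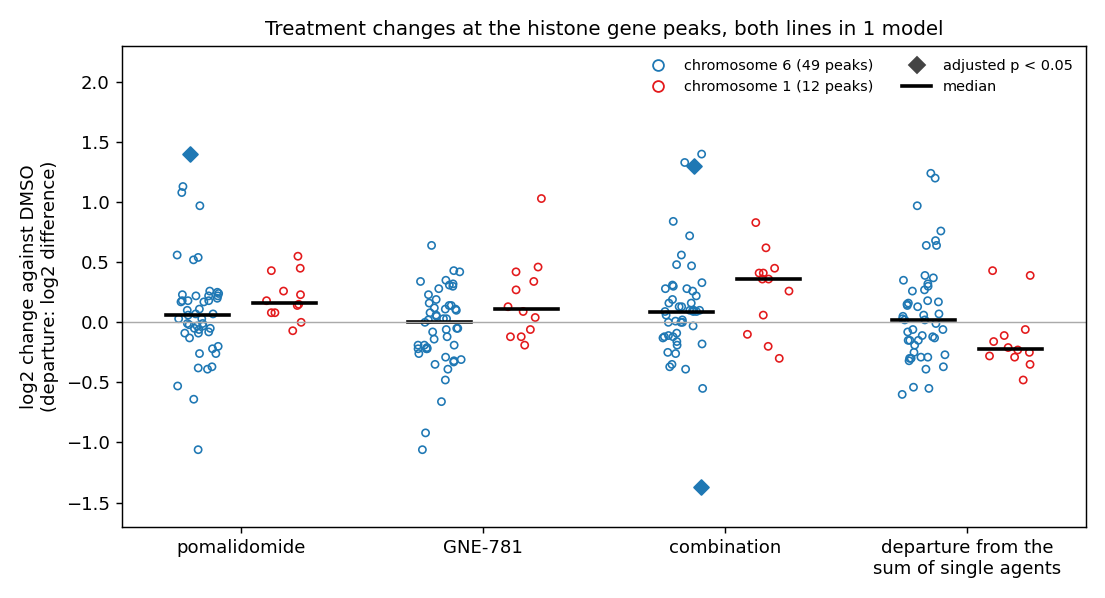
Log2 change against DMSO (vertical axis) at the tested histone gene peaks under pomalidomide, GNE-781 and the combination, and of the departure from summed single effects, with 49 chromosome 6 peaks in blue, 12 chromosome 1 peaks in red, black bars at the medians and filled diamonds at an adjusted p under 0.05. Chromosome 6 medians lie at 0.06, 0, 0.09 and 0.02 in column order, and chromosome 1 medians at 0.16, 0.11, 0.36 and -0.22. The diamonds are the HIST1H2AC peak at 1.40 and 1.30 and the HIST1H1B peak at -1.37.

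Within a line there is 1 library per treatment, so the following ratios have no replicate check. Under pomalidomide the median log2 ratio over chromosome 6 members was 0.39 in JJN3, where 41 of 49 lay above 0, and -0.16 in KMS11, where 12 of 49 did. Of all peaks 52.1% lay above 0 in JJN3 and 50% in KMS11, and of all promoter peaks 61.9% and 46.6%. The chromosome 1 members differed from this in KMS11, with a median of 0.39 and 10 of 12 above 0 in JJN3 but 0.14 and 7 of 12 above 0 in KMS11. Over chromosome 6 members under the combination the medians were 0.25 and -0.03, and under GNE-781 they were 0.12 and -0.10. All JJN3 ratios share the shallowest library, JJN3 DMSO, as their denominator, and the part of that library was not tested.

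On chromosome 6, 29 of 49 members were above 0 in JJN3 and below 0 in KMS11 under pomalidomide, against 23.9% of all peaks, and 0 had the opposite pattern, against 21.8%. All 10 tested H3 peaks were above 0 in JJN3, and 4 of them in KMS11. A test of the difference between the lines in a model with line-specific drug effects, chosen after seeing the data, called 0 of 62 members for pomalidomide (0.0675% of all peaks) and 0 for GNE-781 (0.00964% of all peaks). At an unadjusted level, the lowest p for pomalidomide was that of HIST4H4, with 0.66 in JJN3 and -0.28 in KMS11, a difference of 0.94 ± 0.27 (adjusted p = 0.179). For GNE-781 it was that of HIST1H4K, with -0.23 and 0.77, a difference of -0.99 ± 0.45 (adjusted p = 0.638).

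**Figure D5:**
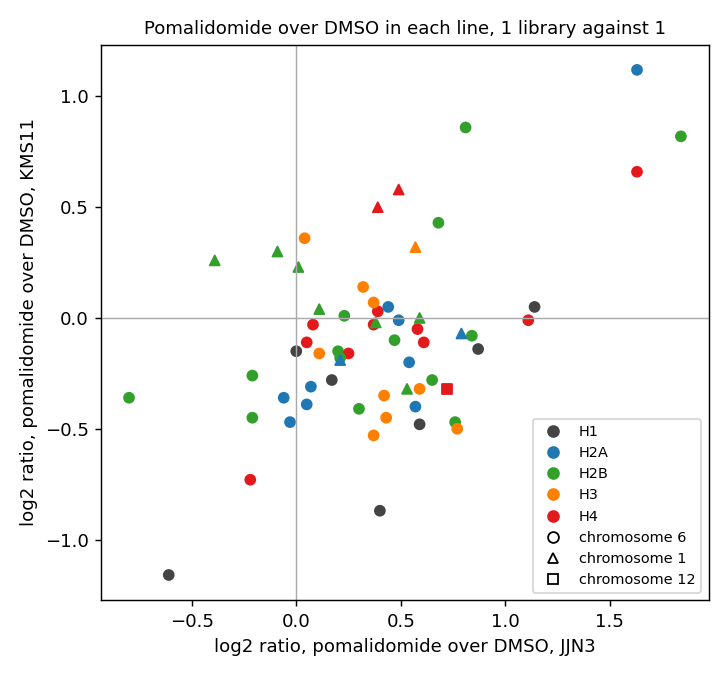
Log2 ratio of pomalidomide to DMSO in JJN3 (horizontal axis) and in KMS11 (vertical axis) at the 62 tested histone gene peaks, 1 library against 1, coloured by class with the chromosome given by the marker. Most points lie right of 0 and below 0, and the HIST1H2AC peak in the gene, at 1.63 and 1.12, is high in both lines.

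Genes that act on the histone genes were read at their own peaks. Of 27 peaks at 10 regulators of histone transcription and the histone locus body, 1 rose under pomalidomide (3.7%, against 1.25% of all peaks), and 1 rose and 2 fell under the combination (11.1%, against 4.79%). The rise was in POU2F1, the octamer-binding factor, at a peak within the gene at 1:167273236-167273796, by 0.92 ± 0.24 under pomalidomide (adjusted p = 0.0319) and 0.83 ± 0.24 under the combination (adjusted p = 0.0318). These calls were lost without the KMS11 DMSO library (adjusted p = 0.734 and 0.694), without the KMS11 pomalidomide library (0.581), without the KMS11 (0.496) or JJN3 (0.0541) combination library and by DESeq2 (0.481 and 0.299). Both falls were at peaks within CCNE2, which encodes cyclin E2, a partner of CDK2, and neither is a promoter peak. The first, 8:94885782-94886168, lies 9030 bp from the annotated start and changed by -2.28 ± 0.39 (adjusted p = 9.82e-05). The second, 8:94891121-94891476, lies 3725 bp from the annotated start and changed by -1.17 ± 0.34 (adjusted p = 0.0279). At the first peak the log2 ratios of the combination to DMSO were -2.03 in JJN3 and -2.12 in KMS11. Without the KMS11 DMSO library the adjusted p values became 0.0579 and 0.449, and the smaller fall was also lost without the KMS11 (0.568) or JJN3 (0.0534) combination library and by DESeq2 (0.7).

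Histone mRNA processing and decay genes, 31 peaks at 14 genes, and histone chaperones and acetyltransferases of new histones, 21 peaks at 11 genes, had 0 calls under any treatment. Of 22 peaks at 13 genes for histone variants made outside S phase and their chaperones, 1 rose, an intergenic peak 5396 bp from H1FX, a linker histone variant, by 1.04 ± 0.21 under pomalidomide (adjusted p = 0.00321), a call lost without the KMS11 DMSO (0.347) or the KMS11 pomalidomide (0.386) library and by DESeq2 (0.131). Between the lines the calls were 22.2%, 25.8%, 23.8% and 18.2% of the tested peaks of these lists in turn, against 31.9% of all peaks. HINFP, the H4 promoter factor, was more accessible at its promoter in JJN3, with 66.4 CPM on average against 31.9 CPM. The log2 difference was 1.04 ± 0.14 (adjusted p = 8.36e-09), which upper-quartile scaling brought to 0.92, below 2-fold. It also fell below 2-fold without the JJN3 or the KMS11 pomalidomide library (0.92 each) and, narrowly, without either GNE-781 library (1.00 each). Among the regulators of histone transcription, 4 line calls were higher in JJN3 and 2 were lower. A peak within NPAT, 47542 bp from the annotated start, was among the lower ones, at -1.68 ± 0.46 (adjusted p = 0.00147). It was weak, with 1.53 CPM on average in JJN3 and 5.68 CPM in KMS11. The H2AFJ promoter, near HIST4H4 on chromosome 12, was higher in JJN3 by 3.70 ± 0.28 (adjusted p = 3.98e-18), the opposite direction to HIST4H4.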

How the data were processed

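ATAC-seq counts per peak in a union peak table of 8 libraries were used as the authors deposited them. Bowtie2 2.3.5.1 and MACS2 2.1.1.20160309 with the build GRCh38, cutadapt 2.5 with Trim Galore 0.6.4, and SAMtools 1.10 and R 4.1.2 are listed in the submitters' processing notes. Whether reads or fragments were counted, and how duplicates and reads with several matches were treated, is not given in the sources used here. Gene names, distances and transcript coordinates of peaks are the authors'.

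Peaks with a mean of at least 2 CPM were tested (62234, with 294 removed), which left 62 of the 63 members; the other, at 6:26331147-26331347 near HIST1H3PS1, averaged 1.8 CPM. The edgeR 4.0.16 quasi-likelihood test (R 4.3.3, TMM scaling) used treatment with the line as a block, with 3 residual degrees of freedom, a prior of 62.8 and a common coefficient of variation of 0.13. The block is the cell line, since the labels give no replicate numbers. P-values were adjusted by Benjamini-Hochberg over all tested peaks, calls needed an adjusted p under 0.05, and line calls at least 2-fold as well. The line comparison takes the 4 treatments as its replicates. Within-line log2 ratios added a prior count of 2. DESeq2 1.42.0, other scalings, no filter, leaving out each library, promoter peaks alone and other models were alternatives. The scripts were tested on simulated data.

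RefSeq (GRCh38.p14) gave promoter windows for 66 of 71 protein-coding histone genes; HIST1H2AH, HIST1H3I, HIST1H3J, HIST1H4A and HIST1H4C had none in the table. Motifs were searched on both strands of the 300 bases. The genes named are those called, the 3 highest and lowest on each chromosome where described, the promoter with the highest mean CPM of each class, and those just inside and outside the line threshold. Members and lists were chosen with earlier results of these data known. Ranking peaks by likeness to the cluster sum was not done, since the lines form 2 separate sets of 4 libraries.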

Additional observations from a re-analysis of the deposited data

Results flagged for a closer look

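In 3 of 124 sets of 4 libraries (each tested peak in each line), 1 library stood apart from the other 3 by a Dixon test, which chance does in about 1 set in 20. The JJN3 GNE-781 library had 6.41 CPM at the HIST1H2APS2 peak, where the others had 3.39 to 3.76 CPM. The JJN3 combination library had 30.1 CPM at HIST1H3H, where the others had 24.1 to 25.0 CPM. The KMS11 combination library had 11.9 CPM at HIST3H2A, where the others had 6.79 to 7.25 CPM.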

How the results depend on the processing

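With 1 library per line and treatment, single libraries and few counts limit the treatment results: 1 count was worth 0.752 CPM in the JJN3 DMSO library and 0.178 CPM in the KMS11 combination library. Of 1701 pairs of a named peak and an alternative, 1623 kept their side of the threshold, 73 lost a call, 5 gained one and 0 called values reversed, while 68 uncalled values changed sign. Many of these pairs are of peaks not called to begin with, so the total says little about how stable the calls are. The HIST1H2AC call was kept in 9 of 15 alternatives under pomalidomide and in 10 of 16 under the combination.

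The count of 1 member under pomalidomide became 0 among promoter peaks, 0 with no replicate block (no line term), 0 with DESeq2 and 3 in a model of additive drug effects, where HIST2H4A (adjusted p = 0.0118) and HIST1H1B (0.0439) joined; leaving out a library gave 0 to 1. The count of 2 under the combination became 1 among promoter peaks, 1 with upper-quartile scaling, 0 with no replicate block, 0 in JJN3 in a line-specific additive model and 0 with DESeq2; leaving out a library gave 0 to 2, with 1 without JJN3 DMSO and 0 without KMS11 DMSO or KMS11 combination. DESeq2 left 12 members without an adjusted p under pomalidomide and 12 under the combination, there HIST1H1B among them, so its 0 there is 1 lost call and 1 member not evaluated. The 9 line calls became 4 among promoter peaks, and 7 to 13 on leaving out a library.

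Medians moved as follows. Under pomalidomide, leaving out a library gave -0.14 to 0.29 on chromosome 6 and 0.09 to 0.4 on chromosome 1. Under GNE-781 these ranges were -0.17 to 0.2 and 0.02 to 0.17, and the chromosome 1 median was 0.27 among promoters, 0.18 with upper-quartile scaling, 0.16 with no replicate block and 0.13 in the additive model. Under the combination they were -0.1 to 0.34 and 0.14 to 0.36, and chromosome 1 gave 0.41 with upper-quartile scaling and 0.21 in JJN3 and 0.2 in KMS11 in the line-specific model. The departure ranged from -0.21 to 0.18 on chromosome 6 and from -0.28 to -0.13 on chromosome 1. Between the lines the chromosome 6 median was 0.24 to 0.45 and -0.05 relative to its neighbours, and the chromosome 1 median was 0.13 to 0.31, 0.36 among promoters, 0.13 with upper-quartile scaling and -0.02 relative to the neighbours of the 9 HIST2 peaks. Upper-quartile scaling moved the median of all peaks in the line comparison from -0.08 to -0.19. The cause of these shifts was not tested.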
